A study of Mus musculus with 24 samples.

Results

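Antigen presentation on major histocompatibility complex (MHC) class II was followed through 10 genes, H2-Aa, H2-Ab1, H2-Eb1, H2-DMa, H2-DMb1, Cd74, Ciita, Cd209a, Flt3 and Ccr7, across the 24 lung libraries of the series. They were selected by gene symbol for their part in this pathway, and all 10 were present among the 26253 genes of the table and among the 16153 genes that passed the filter on low counts. The libraries were RNA sequencing of whole mouse lung. Mice were fed either a control chow or one enriched in the omega-3 fat docosahexaenoic acid (DHA) and were exposed to filtered air or to ozone, a reactive pollutant gas. The 4 groups were control diet with filtered air, control diet with ozone, DHA-rich diet with filtered air and DHA-rich diet with ozone, each with 6 libraries. The labels give no strain, age, sex, ozone dose or time after exposure, and do not state that each library is its own mouse, so a p-value here speaks of spread between libraries, which may be technical. The comparisons of diets within ozone and within air give the diet difference at each exposure. Whether dietary DHA alters the lung's response to ozone is addressed by the interaction of diet and ozone.

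MHC class II molecules are pairs of an alpha and a beta chain that carry peptides from engulfed proteins to the cell surface, where CD4 T cells read them. The invariant chain Cd74 escorts the new pair to the endosome and blocks its groove until proteases cut it down, and the H2-DM pair then exchanges the last fragment for an antigen peptide. Ciita is the coactivator that switches on this gene set together in dendritic cells, B cells and macrophages, and in other cells under interferon-gamma. In lung, dendritic cells are the main cells that carry such peptides to the lymph node. Flt3 is the growth factor receptor on which dendritic cells and their precursors depend, Cd209a is a surface lectin of a subset of dendritic cells, and Ccr7 is the chemokine receptor that guides mature dendritic cells and lymphocytes to lymph nodes.

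Library totals ran from 18053493 to 26225630 counts. The 6 genes of the chains, the H2-DM pair and Cd74 together took 0.130% to 0.251% of each library. Levels are given in CPM, the count scaled to a fixed library size after adjustment by the trimmed mean of M-values (TMM). The 8 alveolar type 2 genes that mark lung tissue (Sftpc and others) summed to between 24556.5 and 39516 CPM in every library, and were not even across groups. Control-diet air libraries 1 to 4 were at 24556.5 to 28156 CPM, library 6 at 32502 CPM and library 5 at 36789 CPM. The other 3 groups were at 34468 to 39516 CPM. Libraries that stood apart were control-diet air libraries 1 to 3, where the 6 class II genes summed to 1614 to 1732 CPM against 1909 to 2371 CPM in libraries 4 to 6. In the DHA-diet ozone group 8 neutrophil genes summed to 275 CPM in library 1 and 358 CPM in library 2, against 75.6 to 111 CPM in the other 4. In bulk tissue, fewer cells of a type and less RNA per cell cannot be told apart.

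The classical chain genes lie side by side on chromosome 17 in the deposited mm39 coordinates, H2-Ab1 at chr17:34482201-34488393, H2-Aa at chr17:34501718-34506798 and H2-Eb1 at chr17:34524841-34535649. The H2-DM genes lie in the same complex, H2-DMa at chr17:34341806-34358076 and H2-DMb1 at chr17:34372165-34379204.

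Class II genes are classically controlled through an X box and a Y box a short way before the start site, to which the RFX and NF-Y complexes and then Ciita are recruited. Promoters of 6 of the 10 genes could be matched in RefSeq (build GRCm38.p6, which differs from the mm39 build of the counts), with 7 start sites. The 120 bases before the start site are shown for the 3 genes that held both boxes in the classical order, because this pair of boxes is the classical mark of the class II set. Capitals mark GNAAC, a short form of the X box core, and ATTGG, the Y box.
H2-Aa: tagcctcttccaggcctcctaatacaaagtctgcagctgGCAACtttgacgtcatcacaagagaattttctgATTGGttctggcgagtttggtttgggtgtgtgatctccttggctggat
H2-Eb1: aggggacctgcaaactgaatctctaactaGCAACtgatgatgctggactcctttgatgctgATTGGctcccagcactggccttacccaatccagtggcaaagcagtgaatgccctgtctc
H2-DMb1: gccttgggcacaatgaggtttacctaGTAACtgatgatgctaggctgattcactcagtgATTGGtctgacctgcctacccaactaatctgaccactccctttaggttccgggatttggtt
The H2-Aa stretch is chr17:34287824-34287943 on the minus strand, that of H2-Eb1 is chr17:34305747-34305866 on the plus strand and that of H2-DMb1 is chr17:34153071-34153190 on the plus strand. The boxes stood 28, 27 and 28 bases apart. A GNAAC followed by ATTGG at 20 to 32 bases, on either strand, was present in 1.87% of 32851 promoters of 250 bases before the start. Alone, GNAAC was in 79.6%, ATTGG in 33.8% and the longer core AGCAAC, searched first and found before H2-Eb1, in 12.2%. The short form and the spacing were chosen after the sequences were seen. The spaced pair was not found in these windows at either start site of H2-DMa, or before Cd209a or Flt3.

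Per length of exon, Cd74 was the most abundant of the 10 transcripts and Flt3 the least. In control-diet air Cd74 stood at 413 ± 68.4 CPM per kilobase (SD, n = 6). H2-Eb1 at 175 ± 28.3 and H2-Ab1 at 166 ± 26.5 did not differ beyond their spread. H2-Aa followed at 92.3 ± 14.8, H2-DMb1 at 26.6 ± 4.47, H2-DMa at 13.5 ± 2.15, Ccr7 at 10.2 ± 2.03, Cd209a at 5.73 ± 0.937, Ciita at 2.70 ± 0.519 and Flt3 at 0.800 ± 0.210. H2-DMa and Ccr7 were neighbours whose SD ranges also met. The order was the same in the other 3 groups, and the lengths are the joined exons of GENCODE M21, so the order of near neighbours depends on that annotation. H2-Ea, the alpha chain that pairs with H2-Eb1 and is no member of the set, had 0 to 9 counts per library and 82 in all, while H2-Eb1 had at least 4799 in each.

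Outside the complex, Cd74 was at chr18:60936921-60945725, Ciita at chr16:10297936-10345505, Cd209a at chr8:3793395-3798985, Flt3 at chr5:147267551-147337300 and Ccr7 at chr11:99035025-99045904. A microRNA gene inside Cd74, Mir5107, had 2 to 18 counts per library and the predicted gene Gm26597 inside Flt3 had 0 to 1, against at least 11158 counts of Cd74 and 48 of Flt3.

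On the DHA-rich diet, 3 members of the class II set were lower after ozone than after air. H2-Aa, H2-Ab1 and Ciita fell (0.775-fold, 0.825-fold and 0.737-fold), the other 7 genes had fitted changes of the same sign that did not pass the test, and none rose. Thus 3 of 10 genes were called lower at an adjusted p under 0.05 (edgeR quasi-likelihood test with Benjamini-Hochberg adjustment over all genes), against 11% of all genes tested called lower in this comparison (12.7% higher and 23.7% in either direction). At an unadjusted p under 0.05 the count was 7 of 10, against 35.6% of all genes. The median log2 fold change of the 10 was −0.28, against −0.01 over all genes, and 12.9% of all genes lay below the median of the 10.

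**Figure D1:**
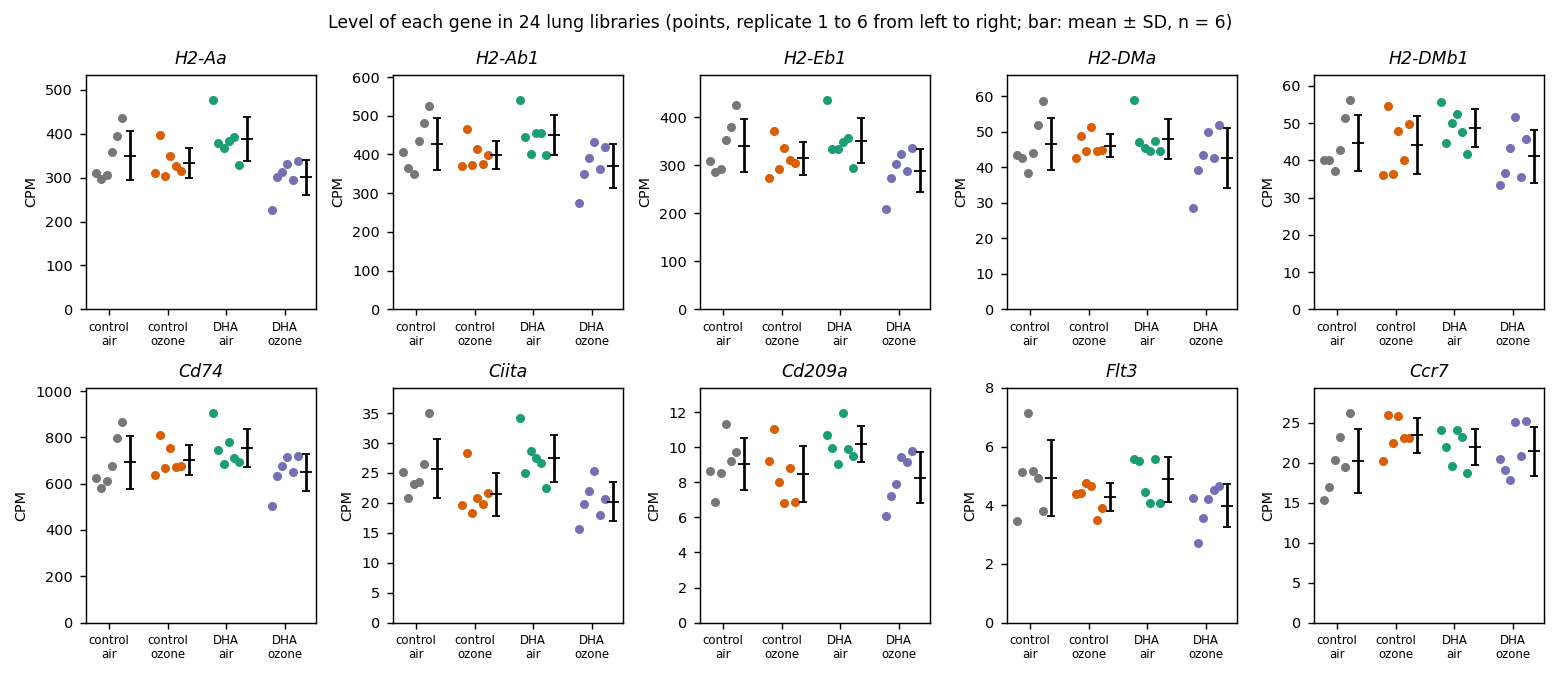
Levels of the 10 genes in CPM (vertical axes from 0) in the 4 groups, 1 point per library, with bars for mean ± SD (n = 6). In the DHA-diet ozone group library 1 is the lowest point of H2-Aa (227 CPM), H2-Ab1, H2-Eb1 and Cd74, and in the DHA-diet air group library 1 is the highest point of each (478 CPM for H2-Aa).

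Among the chains that form the peptide groove, H2-Aa, the I-A alpha chain, ran from 329 to 478 CPM in DHA-diet air (median 381) and from 227 to 337 CPM in DHA-diet ozone (median 308). All 6 ozone libraries were below the air median and 4 were below the lowest air library, so the groups overlapped. The fitted change was −0.37 ± 0.099 (log2 fold change ± SE, adjusted p = 0.00815), a fold of 0.775 with a 95% interval from 0.672 to 0.895. H2-Ab1, the I-A beta chain, ran from 398 to 542 CPM in air (median 450.3) and from 275 to 431 CPM after ozone (median 376), again with 4 ozone libraries below every air library. Its change was −0.28 ± 0.10 (adjusted p = 0.0449). H2-Eb1, the I-E beta chain, ran from 295 to 437 CPM in air (median 342) and from 209 to 336 CPM after ozone (median 295). Its change, −0.28 ± 0.11, was as large but missed the threshold (adjusted p = 0.0542).

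The genes that load the groove had smaller fitted changes than the chains, without a test of that difference. H2-DMa, the alpha chain of the peptide exchanger, ran from 44.5 to 59.0 CPM in DHA-diet air and from 28.6 to 51.9 CPM in DHA-diet ozone, a fold of 0.889 (95% interval 0.760 to 1.04, adjusted p = 0.275). H2-DMb1, its beta chain, ran from 41.7 to 55.7 CPM and from 33.4 to 51.7 CPM, a fold of 0.844 (0.713 to 0.999, adjusted p = 0.131). Cd74, the invariant chain, ran from 683 to 906 CPM in air (median 728) and from 504 to 718 CPM after ozone (median 662). Its fold was 0.862 (0.752 to 0.988, adjusted p = 0.100). None of these changes passed the test, and for each the ozone and air libraries overlapped.

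Ciita, the coactivator of the set, had the largest fitted change of the 10. It ran from 22.5 to 34.2 CPM in DHA-diet air (median 27.1) and from 15.7 to 25.4 CPM in DHA-diet ozone (median 20.2). Of the 6 ozone libraries 5 were below the lowest air library. The change was −0.44 ± 0.12 (adjusted p = 0.0103), a fold of 0.737 (95% interval 0.617 to 0.880). In no member did the ozone and air groups separate, while 3.89% of all genes were lower, and 5.14% higher, in every ozone library than in any air library on this diet.

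None of the 3 dendritic cell genes passed the test on the DHA diet. Cd209a, the lectin, was at 10.2 ± 1.03 CPM in air and 8.27 ± 1.45 CPM after ozone, with 3 ozone libraries below the lowest air library (fold 0.814, adjusted p = 0.0915). Flt3, the growth factor receptor, was at 4.88 ± 0.759 and 3.99 ± 0.720 CPM (fold 0.821, 95% interval 0.658 to 1.02, adjusted p = 0.183). Ccr7, the homing receptor, was at 21.9 ± 2.29 and 21.4 ± 3.06 CPM (fold 0.978, 0.837 to 1.14, adjusted p = 0.859). Ccr7 had 2 ozone libraries above and 1 below the whole range of the air libraries.

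The calls on the DHA diet changed when 2 libraries were left out. DHA-diet air library 1 was the highest of its group, and DHA-diet ozone library 1 the lowest of all 24, for each of the 6 class II genes and Ciita, and their sums over the 6 class II genes were 2476 and 1277 CPM. Without both, no member was called and 2 had an unadjusted p under 0.05, with H2-Aa at −0.23 (adjusted p = 0.0674), Ciita at −0.30 (adjusted p = 0.0801) and H2-Ab1 at −0.14 (adjusted p = 0.276). As the 2 were the extremes for these same genes, smaller changes without them were fixed by the choice, and this fit is no separate test. Without DHA-diet ozone libraries 1 and 2, H2-Aa alone stayed called (−0.28, adjusted p = 0.0496), beside Ciita at −0.35 (adjusted p = 0.0598) and H2-Ab1 at −0.16 (adjusted p = 0.253). With each library left out in turn, H2-Aa and Ciita were called in all 24 fits, from −0.41 to −0.29 and from −0.52 to −0.36. H2-Ab1 lost its call in 13 of the 24 fits, those without control-diet air library 4, DHA-diet air library 1, 2, 4 or 5, control-diet ozone library 1, 3, 4 or 6, or DHA-diet ozone library 1, 2, 3 or 5. H2-Eb1 gained one in 4, without control-diet air library 6, DHA-diet air library 6, or DHA-diet ozone library 4 or 6. DHA-diet ozone library 1 also had the second highest neutrophil sum (275 CPM), and whether its cell makeup bears on its class II levels was not tested.

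**Figure D2:**
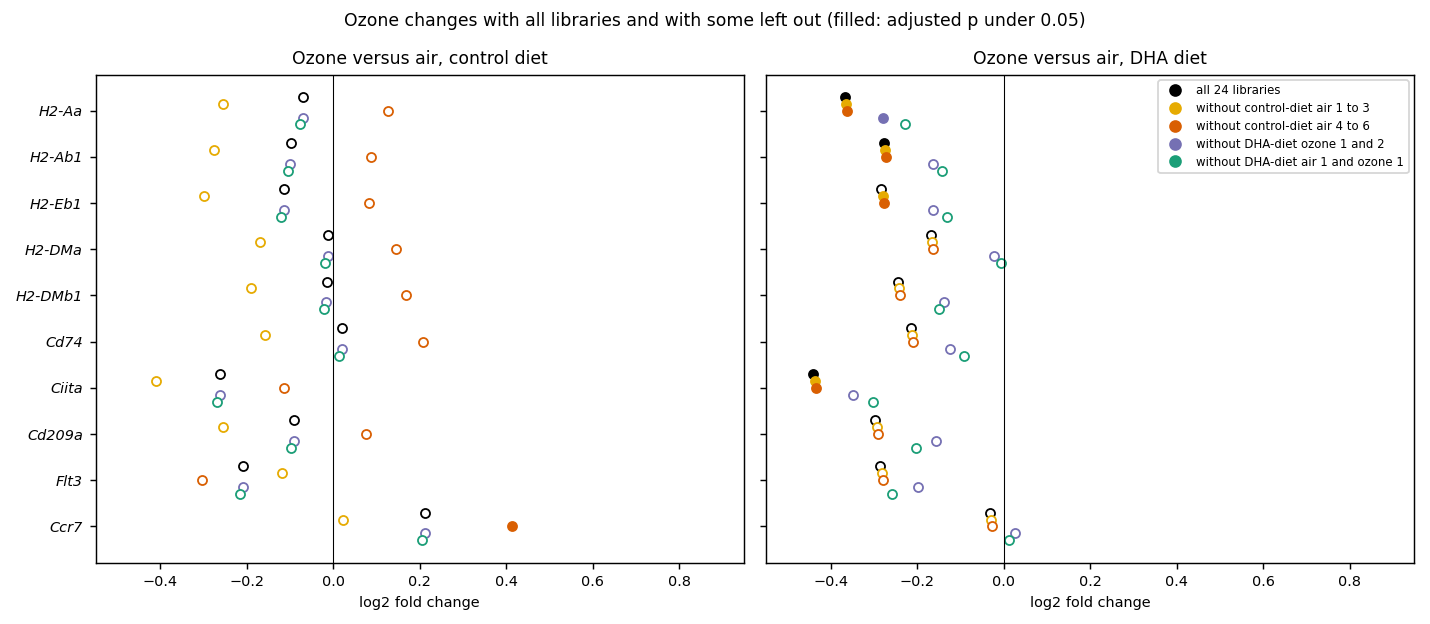
Fitted log2 fold change of ozone against air (horizontal axis) for each of the 10 genes on the control diet (left) and the DHA-rich diet (right), with all 24 libraries and with 4 sets of libraries left out. Filled points passed an adjusted p of 0.05: on the DHA diet H2-Aa, H2-Ab1 and Ciita are filled with all libraries, and none is filled without DHA-diet air library 1 and ozone library 1. Those are the highest air and the lowest ozone library on this diet for these genes, so smaller changes without them were fixed by the choice.

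On the control diet no member was called after ozone, against 16.8% of all genes called in either direction (8.93% higher and 7.87% lower). The exposure groups overlapped in every member, while 4.5% of all genes were higher and 3.26% lower in every ozone library than in any air library. One of the 10 had an unadjusted p under 0.05, against 30.4% of all genes. The members' median log2 fold change was −0.08, against −0.01 over all genes. Ciita ran from 20.9 to 35.0 CPM in air (median 24.3) and from 18.4 to 28.3 CPM after ozone (median 20.3), and 4 of its 6 ozone libraries were below the lowest air library. Its change was −0.26 ± 0.12 (unadjusted p = 0.043, adjusted p = 0.148). It passed only without control-diet ozone library 2, its highest ozone library (−0.37, adjusted p = 0.0427), among the fits that left out 1 library each.

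The chains on the control diet overlapped almost fully. H2-Aa ran from 297 to 436 CPM in air (median 335) and from 304 to 396 CPM after ozone (median 321), a fold of 0.953 (95% interval 0.825 to 1.10). H2-Ab1 ran from 349.5 to 526 CPM and from 370.3 to 465 CPM, a fold of 0.934 (0.808 to 1.08), and H2-Eb1 from 287 to 426 CPM and from 273 to 371 CPM, a fold of 0.924 (0.792 to 1.08). H2-DMa (0.992), H2-DMb1 (0.989) and Cd74 (1.01) had folds near 1, each with a 95% interval inside 0.836 to 1.17. Cd209a was at 9.06 ± 1.48 CPM in air and 8.47 ± 1.60 CPM after ozone, and Flt3 at 4.94 ± 1.30 and 4.28 ± 0.478 CPM. Ccr7 was at 20.2 ± 4.02 CPM in air and 23.4 ± 2.19 CPM after ozone (fold 1.16, 0.991 to 1.35, adjusted p = 0.185), and all 6 ozone libraries were above the air median of 19.9 CPM.

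These control-diet values depended on which air libraries were kept, since the air group spread into 2 sets of 3. For H2-Aa, control-diet air libraries 1 to 3 were at 297 to 311 CPM and libraries 4 to 6 at 359 to 436 CPM. Without libraries 1 to 3 the members' median change after ozone was −0.22, with Ciita at −0.41 (adjusted p = 0.0716) and H2-Aa at −0.25 (adjusted p = 0.139), and none was called. Without libraries 4 to 6 the median was 0.11, H2-Aa stood at 0.13 (adjusted p = 0.439), and Ccr7 was called higher (0.41, adjusted p = 0.0161). The direction of the chains on this diet turned with the 3 air libraries that were left out. For each chain these sets were the 3 lowest and the 3 highest air libraries, so opposite shifts were fixed by that choice. The fits show how far the values move and are no test of either set.

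**Figure D3:**
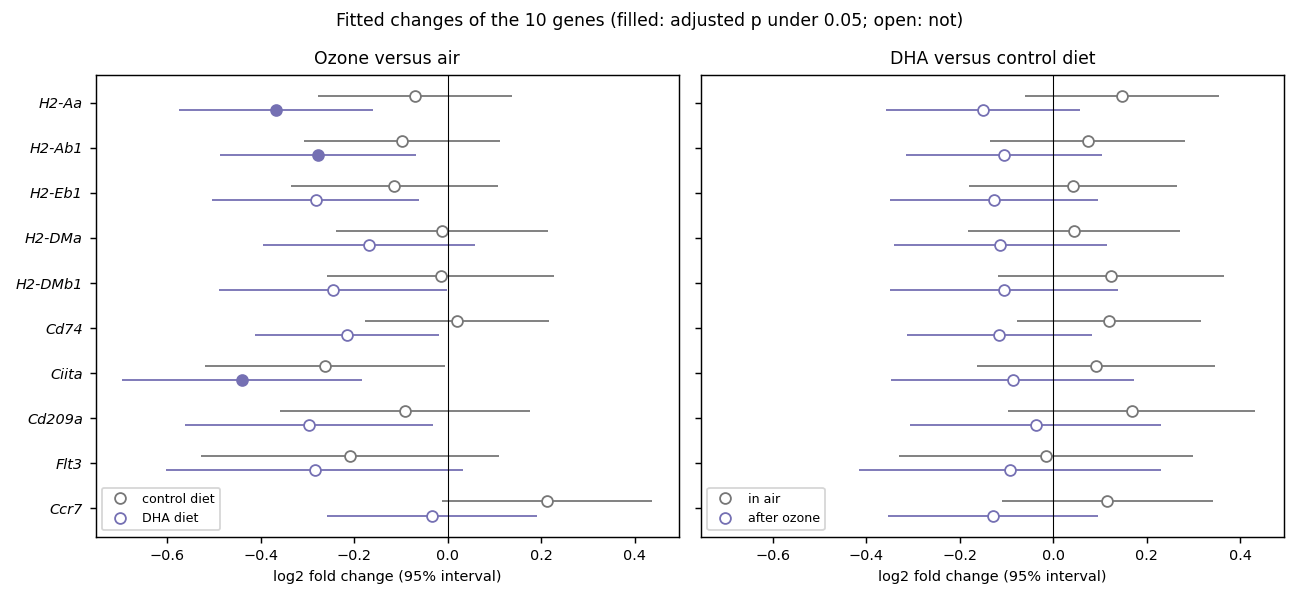
Fitted log2 fold changes with 95% intervals (horizontal axes) for the 10 genes, ozone against air on each diet (left) and DHA against control diet in each exposure (right). Filled points passed an adjusted p of 0.05, which on the left are H2-Aa (−0.37), H2-Ab1 (−0.28) and Ciita (−0.44) on the DHA diet, and on the right none.

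None of the 10 genes passed the test for diet. In air, 9 of 10 members had a positive fitted change on the DHA diet, with a median of 0.10 and a largest value of 0.17 for Cd209a (10.2 ± 1.03 against 9.06 ± 1.48 CPM, adjusted p = 0.532), and 0 had an unadjusted p under 0.05, while 1.15% of all genes were called (0.724% higher and 0.427% lower) and 17.3% had such a p. Without control-diet air libraries 1 to 3, 8 of the 9 positive values turned negative, and without libraries 4 to 6 H2-Aa (0.34, adjusted p = 0.0446) and Cd74 (0.31, adjusted p = 0.0489) were called higher. These sets were the lowest and the highest of that group for the chains and Cd74, so opposite shifts were fixed by the choice. After ozone, all 10 fitted changes were negative with a median of −0.11, none was called, 0 had an unadjusted p under 0.05, and 0% of all genes were called (75 genes by DESeq2), while 14% had an unadjusted p under 0.05. Leaving out library 1 of the DHA-diet ozone group took that median to −0.05, leaving out its libraries 1 and 2 to −0.0044, and leaving out control-diet ozone library 2 to −0.07, and 71 genes were called higher and 73 lower without DHA-diet ozone library 2.

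The difference between the ozone responses on the 2 diets was tested as an interaction, and no member passed it. All 10 values were negative, from −0.30 for H2-Aa (unadjusted p = 0.0436, adjusted p = 0.813) to −0.08 for Flt3, with a median of −0.19 against 0.00 over all genes. The median was −0.11 without DHA-diet ozone library 1. In the control-diet air group, leaving out library 2 took it to −0.13, libraries 1 to 3 to −0.04 and libraries 4 to 6 to −0.36, where 6 of 10 members had an unadjusted p under 0.05 and none was called. The last 2 sets were the lowest and the highest of that group for the chains, so their opposite shifts were fixed by the choice. For Ciita the value was −0.18 ± 0.17 (adjusted p = 0.939) and for H2-Ab1 −0.18 ± 0.14 (adjusted p = 0.912). By edgeR no gene of the 16153 was called for the interaction, 0% in all (2 higher and 3 lower by DESeq2, 2 lower by limma-voom), and 6.12% had an unadjusted p under 0.05. So the calls on the DHA diet and their absence on the control diet were not shown to differ. The comparisons of diet share their libraries with those of ozone, and their values are therefore not separate evidence.

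The 6 genes of the chains, the H2-DM pair and Cd74 varied together from library to library. After group means were removed, the 15 pairs among them had Pearson correlations of log2 CPM from 0.767 to 0.981 (median 0.924) over 24 libraries, while the 45 pairs among all 10 members ran from −0.157 to 0.981 (median 0.657). These correlations are a description, since all genes of a library share its depth and cell makeup.

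The relations of H2-Ab1 to 9 other genes were tested with group means removed, by a two-sided permutation within groups with 100000 resamples and Benjamini-Hochberg adjustment over these 9. Cd74 followed H2-Ab1 most closely (r = 0.957, rho = 0.925, permutation p = 1e-05, the smallest these resamples can give, adjusted p = 9.0e-05), then Ciita (r = 0.850, rho = 0.804, adjusted permutation p = 0.000135). The dendritic cell genes Cd209a (r = 0.632, rho = 0.610, adjusted permutation p = 0.00508), Ccr7 (r = 0.618, rho = 0.675, adjusted permutation p = 0.00793) and Xcr1, a receptor of type 1 dendritic cells (r = 0.658, rho = 0.637, adjusted permutation p = 0.00435), also followed it. So did Cd79a of the B cell receptor (r = 0.605, rho = 0.591, adjusted permutation p = 0.00768) and Sftpc, a surfactant protein gene of alveolar type 2 cells (r = 0.614, rho = 0.617, adjusted permutation p = 0.00768). The relation to Flt3 did not pass the test (r = −0.050, rho = 0.063, adjusted permutation p = 0.870), nor did that to Siglecf, a lectin of alveolar macrophages (r = 0.044, rho = 0.059, adjusted permutation p = 0.870). For Siglecf the groups differed in sign, with r = 0.701 in control-diet air and −0.457, −0.664 and −0.521 in control-diet ozone, DHA-diet air and DHA-diet ozone.

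Without control-diet air library 6 and DHA-diet ozone library 1, the 2 libraries farthest from the median of H2-Ab1 once group means were removed, r was 0.928 for Cd74, 0.774 for Ciita, 0.525 for Cd209a, 0.596 for Ccr7, 0.406 for Xcr1, 0.478 for Cd79a and 0.533 for Sftpc. Without DHA-diet air library 1 and DHA-diet ozone library 1, the farthest before group means were removed, the same 7 values ran from 0.479 for Xcr1 to 0.932 for Cd74. For Flt3 r was 0.168 in the first case and −0.087 in the second. Without control-diet air libraries 4 to 6 the relations to Ccr7 (r = 0.510, adjusted permutation p = 0.0574) and Sftpc (r = 0.446, adjusted permutation p = 0.0919) no longer passed. Within groups, Cd74 kept an r of 0.941 to 0.988, and Sftpc ran from 0.111 in control-diet ozone to 0.790 in DHA-diet ozone.

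**Figure D4:**
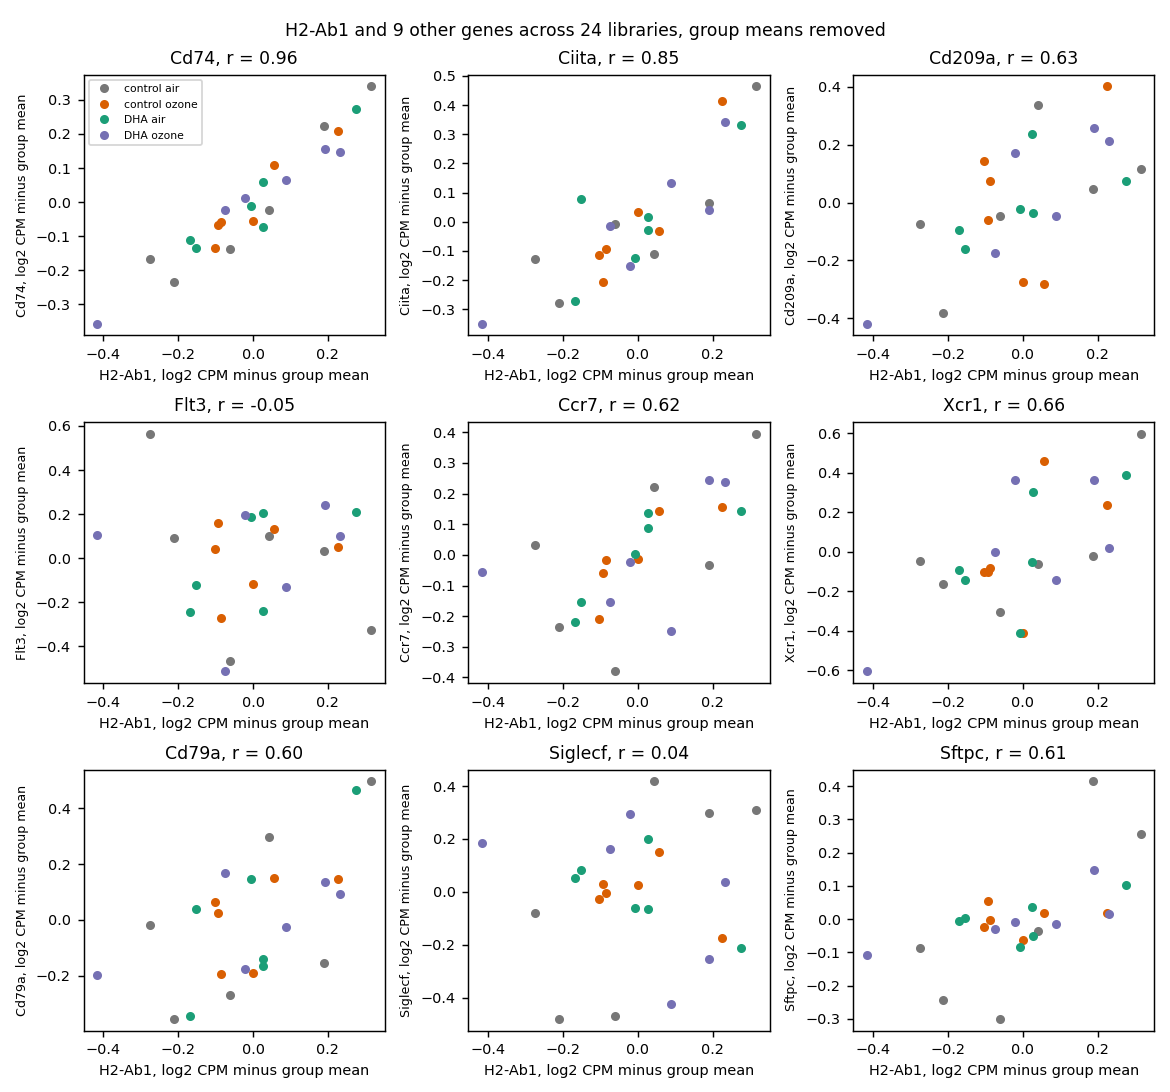
H2-Ab1 (horizontal axes) against 9 other genes (vertical axes), each as log2 CPM minus its group mean, 1 point per library, 24 in each panel. The points of Cd74 lie close to a line (r = 0.957), those of Flt3 show none (r = −0.050), and DHA-diet ozone library 1 is the leftmost point.

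Among the 14052 genes whose mean level reached 1 CPM, predicted genes left out, the 5 most similar to H2-Ab1 by the same correlation were all of MHC class I presentation: the heavy chain H2-K1 (r = 0.928), the immunoproteasome subunit Psmb9 (0.918), the light chain B2m (0.890), the heavy chain H2-D1 (0.887) and the nonclassical heavy chain H2-T23 (0.883). Without DHA-diet air library 1 and DHA-diet ozone library 1 their r stayed between 0.832 and 0.898. For Ciita they were the granzyme Gzma (0.872), H2-T23 (0.854), H2-K1 (0.840), H2-Q4 (0.833) and B2m (0.824). The genes most similar to Ccr7 were Cd81 (0.815), Ctla2b (0.797), Commd8 (0.785), Prr14 (0.773) and the T cell adhesion gene Cd2 (0.769). Cd209a was most like Mob2 (0.804), Rpl5 (0.765), Rnf5 (0.758), Gpsm3 (0.756) and Tbxa2r (0.748), and Flt3 most like Cdkn2aip (0.726), Zfp592 (0.691), S100pbp (0.666), Rpe (0.665) and Lsm12 (0.652). These are the highest of many correlations and carry no test.

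In the list of antigen processing genes the calls were all upward. It holds enzymes that prepare antigen in the endosome, and also Marchf1 and Marchf8, which do not. Of its 9 genes 5 rose after ozone on the control diet and 4 on the DHA diet, and none fell, against 8.93% and 12.7% of all genes called higher. Lgmn, an asparagine endopeptidase, rose 1.18-fold and 1.17-fold, and the cathepsins Ctsb (1.16-fold and 1.20-fold), Ctsz (1.20-fold on both) and Ctsd (1.16-fold and 1.18-fold) rose with it, with adjusted p-values from 3.36e-05 to 0.00202 (edgeR). Ctss, the cathepsin that trims the invariant chain and the fifth call on the control diet, was at 101 ± 15.5 CPM in air and 122 ± 7.70 CPM after ozone there. The summed level of the 9 genes did not overlap between exposures, at 1637 to 1887 against 1933 to 2062 CPM on the control diet and 1691 to 1800 against 1940 to 2042 CPM on the DHA diet. On these diets 4.5% and 5.14% of single genes separated in this direction. Ctsb and Ctsd had the highest mean levels of the 9 (533 and 514 CPM), so these sums weigh them most. Cathepsins are also abundant in macrophages. The 8 alveolar macrophage genes summed to 735 to 857 CPM in air and 961 to 1058 CPM after ozone on the control diet and to 821 to 905 and 988 to 1220 CPM on the DHA diet, and their part in the rise was not tested. Without control-diet air libraries 1 to 3 the count on the control diet was 3, with Ctsd no longer called (0.14, adjusted p = 0.0766).

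**Figure D5:**
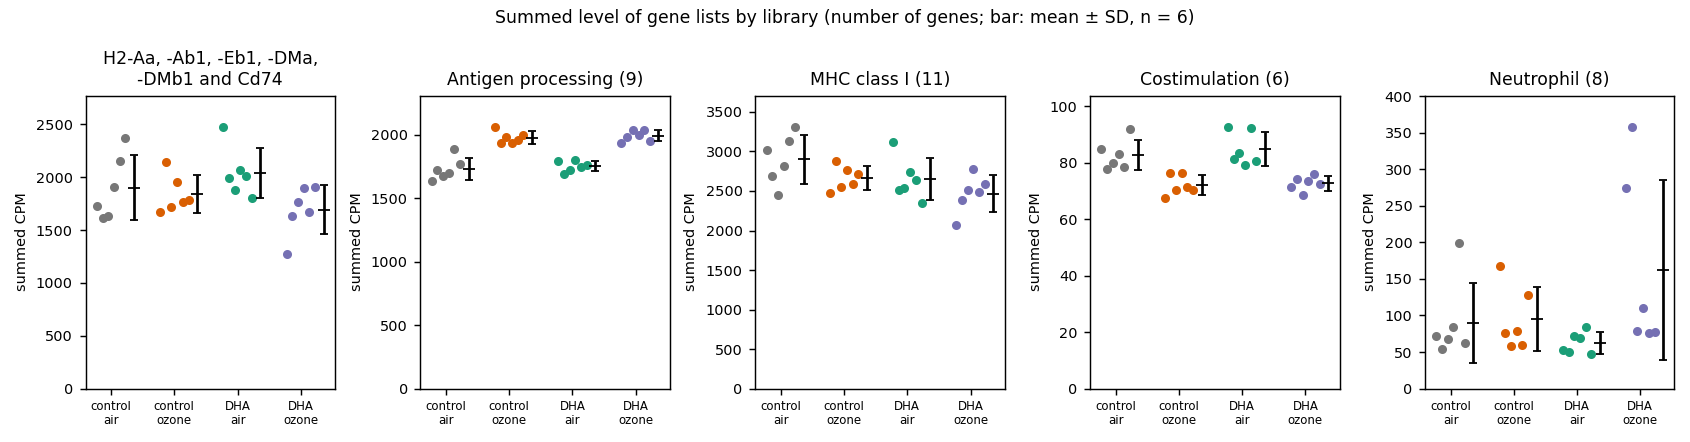
Summed CPM (vertical axes from 0) per library for the 6 class II genes and for 4 gene lists in the 4 groups, with bars for mean ± SD (n = 6). The antigen processing sums separate ozone from air on both diets (1933 to 2062 against 1637 to 1887 CPM on the control diet). So do 4.5% and 5.14% of single genes in this direction. The costimulation sums, which include the inhibitory ligand gene Cd274, separate the other way, as do 3.26% and 3.89% of single genes, while the 6 class II genes overlap. The neutrophil panel shows DHA-diet ozone libraries 1 and 2 at 275 and 358 CPM.

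The costimulation list holds 6 genes whose products dendritic cells show to T cells beside class II, among them the inhibitory ligand genes Cd274 and Pdcd1lg2. Of the 6, 1 fell after ozone on the control diet, Cd274, and 3 on the DHA diet, against 7.87% and 11% of all genes. The medians were −0.16 and −0.31. Icosl, the ligand of ICOS, fell 0.763-fold on the DHA diet (33.9 ± 2.85 CPM in air, 25.9 ± 2.89 CPM after ozone, adjusted p = 0.000377), and Cd274, which encodes the inhibitory ligand PD-L1, fell 0.770-fold on the control diet (28.9 ± 3.13 and 22.2 ± 2.64 CPM, adjusted p = 0.00341). On the DHA diet Cd86 (0.777-fold) and Cd274 (0.837-fold) were the other 2 calls, and the count was 1 without DHA-diet air library 1 or 5 or DHA-diet ozone library 3. The sums over the 6 genes, Cd274 included, did not overlap, as was so of 3.26% and 3.89% of single genes in this direction. They ran from 77.8 to 91.8 CPM in air and 67.4 to 76.4 CPM after ozone on the control diet and from 79.2 to 92.7 and 68.5 to 76.0 CPM on the DHA diet.

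Among the other class II genes 1 was called. Of 4 further chains and chaperones none was called on the control diet (median −0.01), and on the DHA diet H2-Ob, the beta chain of the inhibitor of H2-DM, fell 0.713-fold (39.6 ± 8.53 to 28.3 ± 3.66 CPM, adjusted p = 0.00600, and 0.0550 without DHA-diet air library 1 and ozone library 1). Of the 7 genes of the promoter complex, such as Creb1 and Nfya, none was called by edgeR on either diet (medians −0.04 and −0.01), while 3 and 1 had an unadjusted p under 0.05. On the DHA diet 1 of them was called lower by DESeq2, by limma-voom, with library totals, and when control-diet air libraries 1 to 3 or 4 to 6, or libraries 1 and 2 of the DHA-diet ozone group, were left out, and on the control diet 1 without control-diet air libraries 4 to 6.

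Class I presentation had 3 of 11 genes called lower on the control diet and 1 on the DHA diet, against 7.87% and 11% of all genes, so that the second count is no higher than the share over all genes. The medians were −0.08 and −0.13. Nlrc5, the class I counterpart of Ciita, fell on both, 0.654-fold (22.8 ± 4.33 to 14.9 ± 2.04 CPM, adjusted p = 0.00220) and 0.663-fold (18.9 ± 3.30 to 12.6 ± 2.18 CPM, adjusted p = 0.00205). Psmb9 (0.821-fold) and the transporter Tap1 (0.815-fold) were the others on the control diet, and they lost their calls in 11 and 15 of the 24 fits that left out 1 library each. Among the genes of interferon-gamma signalling, the transcription factor Irf1 fell on the control diet (0.856-fold) and the chemokine Cxcl10 rose (1.44-fold), and each lost its call in 8 of those 24 fits. Irf1 also fell on the DHA diet (0.835-fold), a call lost without ozone libraries 1 and 2 of that diet.

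Markers of cells that carry class II gave mixed counts, to be read against 7.87% of all genes called lower on the control diet and 11% on the DHA diet. Of 8 genes of type 1 dendritic cells, Clec9a, a receptor for dead cells, fell on the control diet (0.787-fold, 29.0 ± 0.787 to 22.8 ± 2.50 CPM, adjusted p = 0.00663). The sum of the 8 genes went the other way there, from 321.6 to 342.6 CPM in air and 343.2 to 356 CPM after ozone. Such a separation upward was seen in 4.5% of single genes. Cadm1 was at 190 ± 7.12 CPM in air and 209 ± 6.22 CPM after ozone. Limma-voom and the fit of the 2 groups alone each called 1 gene of the list higher. So did the fits without DHA-diet ozone libraries 1 and 2, and without DHA-diet air library 1 and ozone library 1. On the DHA diet Clec9a (0.763-fold), Xcr1 (0.610-fold, 4.01 ± 0.853 to 2.45 ± 0.591 CPM) and the integrin Itgae (0.751-fold) fell. The count was 6 without DHA-diet air library 6, and Itgae lost its call without DHA-diet ozone libraries 1 and 2 (adjusted p = 0.0509, edgeR). Type 2 dendritic cells had 0 of 8 called on the control diet by edgeR (2 at an unadjusted p under 0.05), 1 higher by DESeq2 or without DHA-diet ozone libraries 1 and 2, and 2 higher without control-diet air libraries 4 to 6. This list had Kmo (0.683-fold) and Cd1d1 (0.770-fold) lower on the DHA diet, which both lost their calls without DHA-diet ozone libraries 1 and 2. Of 6 genes listed as shared by dendritic cells Kit fell on the DHA diet (0.828-fold, lost in 5 of those 24 fits). Kit had a mean of 131 CPM, against 11.1 CPM for Zbtb46 of that list, and which lung cells its fall belongs to was not tested. Of 6 plasmacytoid genes none was called by edgeR on either diet, with 2 and 0 at an unadjusted p under 0.05. On the control diet 1 plasmacytoid gene was called lower by limma-voom, with library totals, without DHA-diet ozone libraries 1 and 2, and without DHA-diet air library 1 and ozone library 1.

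Genes of mature, migrating dendritic cells gave 3 calls on the control diet, all upward, against 8.93% of all genes called higher. Of 5 tested of 8 listed, Ccl17, a chemokine that draws T cells, rose 2.37-fold (5.06 ± 2.00 to 11.9 ± 3.05 CPM, adjusted p = 0.000142), Ccl22 rose 1.60-fold and Fscn1 rose 1.30-fold (lost in 10 of the 24 fits), and Ccl17 was the 1 call without control-diet air libraries 1 to 3. On the DHA diet Ccl17 was the 1 call, against 12.7% of all genes called higher, and rose 2.19-fold (6.74 ± 0.880 to 14.8 ± 3.18 CPM, adjusted p = 0.000139). Ccr7, which belongs to the same cell state, was not called by edgeR on either diet with all libraries, and on the control diet limma-voom called it higher (0.29, adjusted p = 0.0475).

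B cells also express the class II set. Of 10 B cell genes none was called on the control diet by edgeR, and none had an unadjusted p under 0.05. Their sum ran from 212 to 377 CPM in control-diet air, 247 to 313 in control-diet ozone, 226 to 419 in DHA-diet air and 222 to 301 in DHA-diet ozone, with DHA-diet air library 1 at 419 and DHA-diet ozone library 1 at 222, the same libraries that were highest and lowest of their groups for the class II chains. None of the 10 genes was at 0 in any library.

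For the other cell markers 8.93% of all genes were called higher and 7.87% lower on the control diet, and 12.7% and 11% on the DHA diet, and a single call in a list is near those shares. Of the markers, 2 of 8 alveolar macrophage genes rose on the control diet (Chil3, a chitinase-like protein, 1.84-fold, and Cd9, 1.15-fold) and 2 on the DHA diet (Chil3, 1.83-fold, and Marco, 1.99-fold). Cd9 lost its call without control-diet air libraries 1 to 3 (adjusted p = 0.0559) and Marco without DHA-diet ozone libraries 1 and 2 (adjusted p = 0.0785). Of 8 interstitial macrophage genes 3 rose on the control diet (Mrc1, C1qa and C1qb, by 1.27-fold to 1.28-fold, with C1qb lost in 18 of the 24 fits), and on the DHA diet C1qa (1.28-fold) and Mrc1 (1.15-fold) rose while Csf1r fell (0.889-fold). Mrc1 on the DHA diet lost its call with library totals, the replicate block, limma-voom and the 2 groups alone, and without DHA-diet ozone libraries 1 and 2 (0.14, adjusted p = 0.183), and both Mrc1 and Csf1r lost theirs without DHA-diet air library 1 and ozone library 1 (adjusted p = 0.0941 and 0.0791). Monocyte genes had 0 of 8 called and then Treml4 lower (0.700-fold), and T cell genes 0 of 7 and then Cd28 lower (0.684-fold), both lost without DHA-diet ozone libraries 1 and 2. Alveolar type 2 genes had 5 of 8 higher on the control diet, Cxcl15 (1.38-fold) among them, and 3 higher and Lyz1 lower (0.724-fold) on the DHA diet. On the control diet their sum was low in air libraries 1 to 4 (24557 to 28156 CPM, against 34573 to 35721 CPM after ozone). Neutrophil genes had Retnlg higher on the control diet (2.53-fold, with 0 calls without control-diet air libraries 1 to 3) and 7 of 8 higher on the DHA diet (median 1.37), which went to 4 without DHA-diet ozone library 2 and to 2 without libraries 1 and 2. The part of these cells in the class II levels was not tested.

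In air, the DHA-rich diet changed few genes of these lists. Cd274 was lower (0.781-fold) and Zbtb46, a transcription factor of dendritic cells, was higher (1.37-fold, adjusted p = 0.0483), and Slc34a2 (1.27-fold), Lamp3 (1.23-fold) and Sftpc (1.30-fold) of the alveolar type 2 list were higher. Each of these calls was lost in 6 to 17 of the 24 fits that left out 1 library. All were lost without control-diet air libraries 1 to 3, where 0 genes in all were called. After ozone and for the interaction no gene of the 18 lists was called by edgeR with all libraries.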

How the data were processed

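RNA of whole lung was sequenced in 24 libraries, 4 groups of 6 named by the labels. Per the submitters' processing notes the work was done in Partek, with STAR for alignment to mm39 and HTSeq for gene counting; their versions, the annotation, the strand setting and the counting convention of coordinates are not stated in what was used here. The authors deposited whole-number raw counts, with Scgb1a1, the most abundant gene, rounded to 3 significant digits.

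edgeR 4.0.16 (R 4.3.3) fitted 1 mean per group by quasi-likelihood over all 24 libraries, leaving 20 residual degrees of freedom, after filterByExpr (count 10, total 15) and TMM scaling. Calls used Benjamini-Hochberg adjustment across the 16153 genes kept and a threshold of 0.05. Each SE is the absolute log2 fold change over the root of F, and correlations used log2 CPM with a prior count of 2. Members and the 18 lists were chosen with earlier results of these data known. By rule the members were named and, per list, at most 4 called genes of smallest p or 2 of highest level if none was called, with a selection printed (results that need withheld items are not reported here), and the 5 genes most similar to each of H2-Ab1, Ciita, Cd209a, Flt3 and Ccr7. H2-Ea and Ctss were singled out after their values were seen.

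The fit was repeated with RLE scaling, with library totals, unfiltered, with a filter of 1 CPM in 6 libraries, with a replicate block, on the 2 compared groups, at a threshold of 0.01, without single libraries or the sets of libraries named in the text, and by DESeq2 1.42.0 and limma-voom (limma 3.58.1). Leaving out DHA-diet air library 1 together with DHA-diet ozone library 1 was added after seeing the data. No 2 libraries held identical counts (highest correlation of log2 CPM 0.992). The fit was tested on simulated data. Correlations, sequence matching and plots ran in Python 3.11.15 with scipy 1.17.1, pandas 2.3.3, numpy 2.4.6 and matplotlib 3.10.9.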

Additional observations from a re-analysis of the deposited data

Results flagged for a closer look

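Of 40 sets of 6 libraries (10 genes in 4 groups), 2 held a library whose gap to its nearest neighbour exceeded Dixon's 95% critical value for 6 samples, where chance flags about 1 in 20. H2-DMa was highest in DHA-diet air library 1 at 59.0 CPM, with the next library at 47.3 CPM (gap 0.805 of the range). Ciita was highest in control-diet ozone library 2 at 28.3 CPM, with the next library at 21.7 CPM (gap 0.664 of the range), and its ozone change on the control diet was −0.37 without that library against −0.26 with it.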

How the results depend on the processing

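The 3 lower calls on the DHA diet became 1 at an adjusted p under 0.01, 1 without DHA-diet ozone libraries 1 and 2, and 0 without DHA-diet air library 1 and DHA-diet ozone library 1, an alternative chosen after seeing the data; elsewhere the count was 2 to 4, and 2 to 4 with each library left out. DHA-diet air library 1 and ozone library 1 were the highest and the lowest of their groups for the 3 called genes, so smaller changes were fixed. Fewer libraries enter the fits without DHA-diet ozone libraries 1 and 2 or without that pair, and the cause of the change was not tested. Ccr7 on the DHA diet turned to 0.027 and 0.011 in those fits and ran from −0.089 to 0.014 with each library left out. On the control diet 1 member was called higher under limma-voom and 1 without control-diet air libraries 4 to 6, and members called lower ran from 0 to 1 with each library left out. Signs there turned for Cd74 (−0.016 with library totals, −0.16 without control-diet air libraries 1 to 3), for H2-DMa and H2-DMb1 under limma-voom (0.046 and 0.031), and without control-diet air libraries 4 to 6 for H2-Aa (0.13), H2-Ab1 (0.088), H2-Eb1 (0.082), H2-DMa (0.15), H2-DMb1 (0.17) and Cd209a (0.075). With each library left out, Cd74 ran from −0.030 to 0.089, H2-DMa from −0.061 to 0.060 and H2-DMb1 from −0.093 to 0.056.

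For diet in air without control-diet air libraries 1 to 3, the changes were −0.039 for H2-Aa, −0.11 for H2-Ab1, −0.14 for H2-Eb1, −0.11 for H2-DMa, −0.054 for H2-DMb1, −0.059 for Cd74, −0.059 for Ciita, 0.072 for Flt3 and −0.076 for Ccr7, and 2 members were called higher without libraries 4 to 6. Without DHA-diet air library 1 and ozone library 1, H2-Eb1 and H2-DMa were at −0.034 and −0.028. With each library left out Flt3 ran from −0.10 to 0.12, H2-DMa from −0.031 to 0.12 and H2-Eb1 from −0.037 to 0.11. For diet after ozone, Cd209a turned to 0.060 under limma-voom, 0.10 without DHA-diet ozone libraries 1 and 2 and 0.044 without DHA-diet air library 1 and ozone library 1; H2-Ab1 (0.0075), H2-DMa (0.031) and Ciita (0.0023) turned without DHA-diet ozone libraries 1 and 2; Cd209a ran from −0.091 to 0.058 and Ciita from −0.16 to 0.012 with each library left out. The interaction turned without control-diet air libraries 1 to 3 for H2-Ab1 (0.0012), H2-Eb1 (0.019) and H2-DMa (0.0024), for Flt3 without libraries 4 to 6 (0.025) or DHA-diet ozone libraries 1 and 2 (0.011, and from −0.22 to 0.0086 with each library left out), and for H2-DMa without DHA-diet air library 1 and ozone library 1 (0.013). None of these turned values passed the test. For the chains, leaving out control-diet air libraries 1 to 3 or 4 to 6, their lowest and highest there, fixed the direction of the shift.

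The correlation of H2-Ab1 with Flt3 was 0.195 without control-diet air libraries 1 to 3 and 0.104 without 4 to 6 (−0.127 to 0.169 with each library left out), and with Siglecf −0.524 and −0.526 (−0.0888 to 0.152). With Ccr7 and Sftpc it fell to 0.510 and 0.446 without control-diet air libraries 4 to 6. The replicate block took H2-Ab1 on the DHA diet to an adjusted p of 0.0521 (edgeR) and the lower calls there from 3 to 2, and changed no other member's call; same-numbered libraries had a mean correlation of −0.0169 over 36 pairs and 0 of 24 libraries correlated best with one of their own number, so the number was not taken as a pairing. Over all genes the diet comparison in air called 117 higher and 69 lower, against 64 and 21 with the block, 317 and 272 by DESeq2, 408 and 441 by limma-voom, 187 and 172 with the 2 groups alone and 655 and 896 without control-diet air libraries 4 to 6. Library totals moved the control-diet ozone split from 1442 higher and 1271 lower to 940 and 1737, and the median of all genes from −0.01 to −0.04. Flt3, with 48 to 167 counts per library, is the least precise member.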
